A study of Mus musculus with 6 samples.

Results

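The genes described here are 10 core components of the Notch pathway, namely the receptor genes Notch1, Notch2 and Notch3, the ligand genes Jag1, Jag2, Dll1 and Dll3, the fringe genes Mfng and Lfng, and Rbpj. They were chosen by name, with earlier results of these data known. All 10 are found among the 24062 gene symbols of the deposited files. The RNA was polyA-selected from heads of C57BL/6 mouse embryos at embryonic day 8.5. Wild-type heads were Prdm15 tm1a+/+, heterozygous heads Prdm15 tm1a+/- and mutant heads Prdm15 tm1a-/-, with 2 libraries for each genotype and no agent given to any group. The tm1a allele is a knockout-first insertion in Prdm15, which encodes a PRDM zinc finger protein. It is carried by every cell of the embryo, so no Cre driver limits it. The protocol mentions 2 heads per genotype and nothing on litters, so p-values measure only the spread between these libraries.

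Notch receptors are cut at the cell surface after they bind a Jagged or Delta ligand on a neighbouring cell. The freed intracellular domain enters the nucleus, joins the DNA-binding protein Rbpj and Mastermind coactivators, and switches on genes such as those of the Hes and Hey families. Fringe enzymes add sugars to the receptors and so shift their response between Delta and Jagged ligands. In the early neural plate the pathway keeps progenitors from differentiating, and in the presomitic mesoderm of the trunk it takes part in the segmentation clock.

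Libraries held 29412227 to 40439234 reads in genes. For wild-type replicate 2 and mutant replicate 1, each attached count file bears the other sample's title. Counts were assigned by the title in the file name, as the table of RPKM values does by its columns. RPKM are reads per kilobase of gene, scaled to library size. By title, 100% of compared genes had a constant ratio of count to RPKM in each library, against 0.4% for the 2 files as attached. Prdm15 stood at 5.35 ± 0.297 RPKM in the wild-type libraries, 4.74 ± 0.376 in the heterozygous and 4.6 ± 0.626 in the mutant ones (SD, n = 2 each), and whole-gene reads do not separate normal from altered transcripts. Otx2, a homeobox gene of the forebrain and midbrain, had 41.9 ± 6.94, 31.6 ± 1.14 and 14.4 ± 5.28 RPKM. Xist was at 1100 to 1330 CPM (read counts scaled to the library total) in both mutant libraries and wild-type replicate 2, and at 0.271 to 0.352 CPM in the other 3.

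Markers of several tissues differed between the groups. Lower and higher mean calls at an adjusted p under 0.05 in the edgeR test described below. By it, 17.1% of all genes tested were higher and 13.6% lower in mutant against wild-type heads. In mutant against wild-type heads, 10 of 12 neural progenitor genes were lower and 1 higher, and their summed level was 1110 and 1090 CPM in wild-type, 872 and 972 in heterozygous and 680 and 704 in mutant libraries. Of 12 neuron genes 9 were tested and 7 were lower (130 and 135, 94.4 and 93.7, and 58.3 and 51.1 CPM). Of 9 neural crest genes 8 were lower (903 and 889, 262 and 577, and 212 and 213 CPM). All 12 yolk sac visceral endoderm genes were higher, with sums of 8.31 and 16, 2670 and 1930, and 4980 and 4200 CPM. Of 14 heart genes 13 were tested and all 13 were higher (247 and 74.8, 1830 and 2880, and 2160 and 1230 CPM). Of 12 endothelial genes 1 was higher (284 and 406, 354 and 403, and 433 and 391 CPM). Of 10 presomitic mesoderm and somite genes 6 were tested and 3 were higher (48.1 and 16.8, 55.9 and 70.1, and 77 and 167 CPM). Among the genes with 0 reads were Apoa4 in wild-type replicate 1, Neurod4 in 3 libraries, Msgn1 in 3, Nppa in 2, and Neurod1, Nhlh1 and Mesp1 in 1 each. The part of these tissues in the results on Notch genes was not tested beyond the values given with each result.

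The first question was how the Notch components differ between mutant and wild-type heads. Of the 10 genes, 5 were lower in mutant heads and 0 higher: Notch3, Jag1, Mfng, Lfng and Rbpj. Each of these genes stood lower in both mutant libraries than in either wild-type library. Notch1, Notch2, Jag2, Dll1 and Dll3 did not pass. The test was the quasi-likelihood test of edgeR, adjusted over all genes by Benjamini-Hochberg, with a threshold of 0.05. By the same test 30.6% of the 15187 genes tested differed, 17.1% higher and 13.6% lower. The median log2 fold change was -0.66 over the 10 genes and -0.02 over all genes tested. For 8 of the 10 genes the RPKM of both groups did not overlap, 6 lower and 2 higher, as for 71.1% of all genes (36.9% lower, 34.1% higher). In whole heads, fewer cells of a type and less RNA per cell cannot be told apart.

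**Figure D1:**
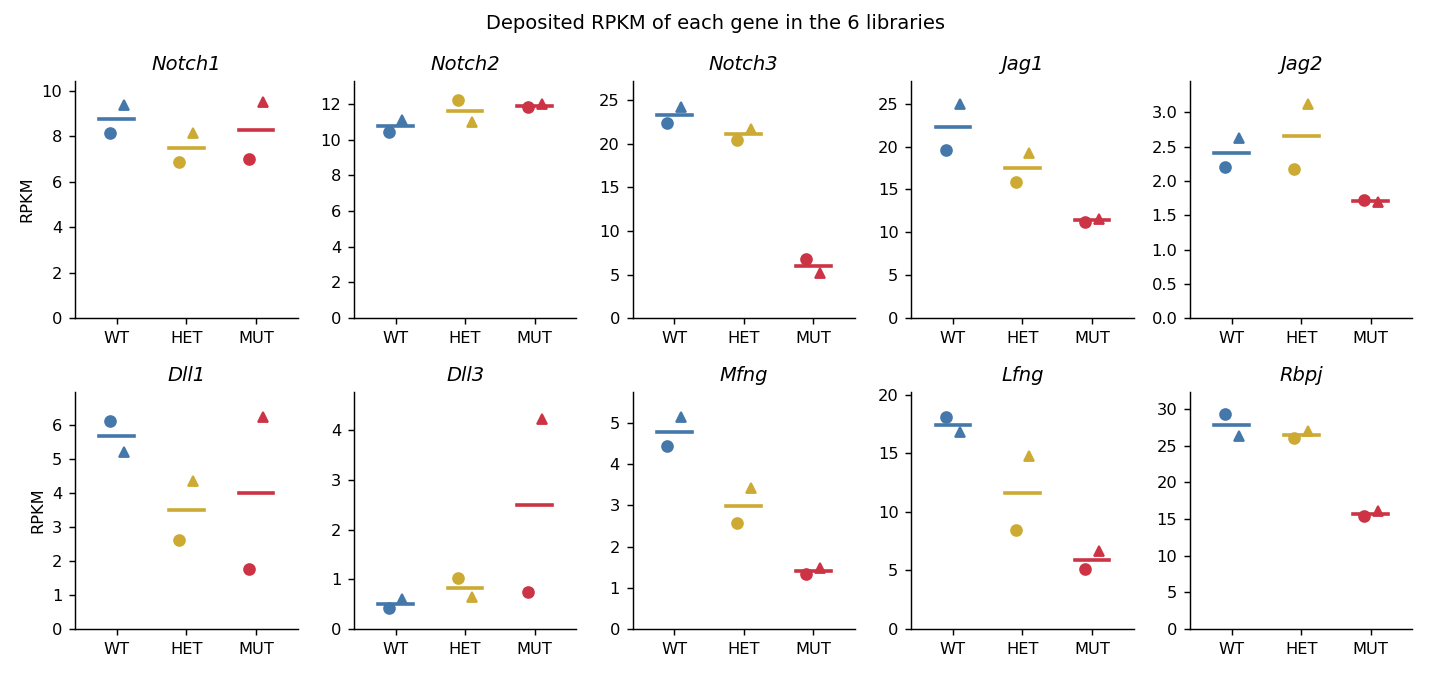
Deposited RPKM (vertical axis, from 0) of the 10 genes in wild-type (WT), heterozygous (HET) and mutant (MUT) libraries; circles are replicate 1, triangles replicate 2 and bars the mean of both. Notch3 sits at 20.4 to 24.2 RPKM in the 4 WT and HET libraries and at 5.2 to 6.79 in the MUT libraries, while Notch1 and Notch2 overlap or nearly meet across the groups.

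Among the receptors, Notch3 changed and the others did not pass. Notch3 (chromosome 17, 32120820 to 32166852, minus strand, GRCm38) had 22.3 and 24.2 RPKM in wild-type, 20.4 and 21.7 in heterozygous and 6.79 and 5.2 in mutant libraries. Wild-type and heterozygous values lay close together, and both mutant libraries stood far below them. Mutant heads had a 3.85-fold lower level than wild type, a log2 fold change of -1.95 (SE 0.13, adjusted p = 0.000746). The heterozygous value against wild type was -0.14 (SE 0.13, adjusted p = 0.539). Set against heterozygous heads, mutants stood at -1.8 (SE 0.13, adjusted p = 0.0103). Notch1 (chromosome 2, 26457903 to 26516663, minus strand), a receptor needed in embryonic vessels and somites, had 8.13 and 9.36 RPKM in wild-type, 6.88 and 8.13 in heterozygous and 7.02 and 9.53 in mutant libraries. The groups overlapped, and the mutant log2 fold change was -0.07 (SE 0.16, adjusted p = 0.767). It turned to 0.02 without wild-type replicate 2 and to 0.14 without mutant replicate 1. Notch2 (chromosome 3, 98013527 to 98150361, plus strand) had 10.4 and 11.1 RPKM in wild-type, 12.2 and 11 in heterozygous and 11.8 and 12 in mutant libraries. Both mutant values were above the wild-type ones by a small margin, with a log2 fold change of 0.15 (SE 0.06, adjusted p = 0.129).

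Of the ligand genes, Jag1 fell. Jag1 (chromosome 2, 137081456 to 137116644, minus strand) encodes a Jagged ligand and had 19.6 and 24.9 RPKM in wild-type, 15.9 and 19.2 in heterozygous and 11.2 and 11.6 in mutant libraries. Its order was wild type, heterozygous, mutant with no overlap between groups. Against wild type, Jag1 was 1.94-fold lower in mutants (-0.95 in log2, SE 0.14, adjusted p = 0.00652) and stood at -0.34 in heterozygotes (SE 0.14, adjusted p = 0.211). Jag2 (chromosome 12, 112907819 to 112929776, minus strand), the other Jagged ligand gene, had 2.2 and 2.62 RPKM in wild-type, 2.17 and 3.13 in heterozygous and 1.72 and 1.7 in mutant libraries. Mutant values were the lowest of all, but the log2 fold change of -0.49 (SE 0.21, adjusted p = 0.129) did not pass.

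The Delta genes differed most between replicates. Dll1 (chromosome 17, 15367354 to 15376872, minus strand), an activating ligand of neural and somite cells, had 6.12 and 5.2 RPKM in wild-type, 2.6 and 4.36 in heterozygous and 1.76 and 6.23 in mutant libraries. The mutant libraries held both the lowest and the highest value. Its mutant log2 fold change stood at -0.51 (SE 0.57, adjusted p = 0.535). Without mutant replicate 2 it was -1.68 (adjusted p = 0.0417, where the alternatives spanned 0.0417 to 0.967), and without mutant replicate 1 it was 0.15. Dll3 (chromosome 7, 28293553 to 28302238, minus strand) encodes a divergent Delta protein that acts in presomitic mesoderm and does not activate receptors from neighbouring cells. Its values were 0.426 and 0.592 RPKM in wild-type, 1.03 and 0.635 in heterozygous and 0.746 and 4.23 in mutant libraries. The rise rested on mutant replicate 2, with 269 reads against 38 to 69 in the other 5 libraries. Its mutant log2 fold change came to 2.29 (SE 0.8, adjusted p = 0.0803) and to 0.55 without mutant replicate 2. In the authors' deposited table, made with a likelihood ratio test, Dll3 stands at a log2 fold change of 2.28 with a false discovery rate of 0.011. DESeq2 and edgeR's likelihood ratio test also passed it here, at adjusted p = 0.015 and 0.0249, with 0.00807 to 0.434 over all alternatives by title.

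In mutant replicate 2, most markers of trunk mesoderm were high as well. The summed presomitic mesoderm and somite list was 167 CPM there, against 16.8 to 77 CPM in the other 5 libraries. Meox1 held the most reads of the list in mutant replicate 2, 2873, followed by T with 1055 and Tcf15 with 605. Tbx6, a T-box gene of presomitic mesoderm, had 172 reads in that library and 16 to 30 in the others. Mesp2, a segmentation gene that Notch signalling switches on, had 22 reads there and 1 to 6 in the others, and Hes7, a segmentation clock gene, had 65 reads against 4 to 10. Meox1, T, Tcf15, Tbx6, Mesp2 and Hes7 were named after their values were seen, and Hes7 is not in the summed list. Of the 10 listed genes, 8 had their highest RPKM of all libraries in mutant replicate 2. The other 2 did not, with Ripply1 at 3.43 RPKM in mutant replicate 1 and 2.16 in replicate 2, and Uncx at 1.4 and 1.38. Msgn1 had 8 and 7 reads in the mutant libraries, and Mesp1 and Ripply2 had 16 and 28 in mutant replicate 2. The share of all genes with their highest RPKM in mutant replicate 2 was not computed. Lfng, a clock gene in the same tissue, had 6.65 RPKM in mutant replicate 2. That was above the 5.09 of mutant replicate 1 and below every heterozygous and wild-type library. The part of trunk mesoderm in the Delta values was not tested.

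**Figure D2:**
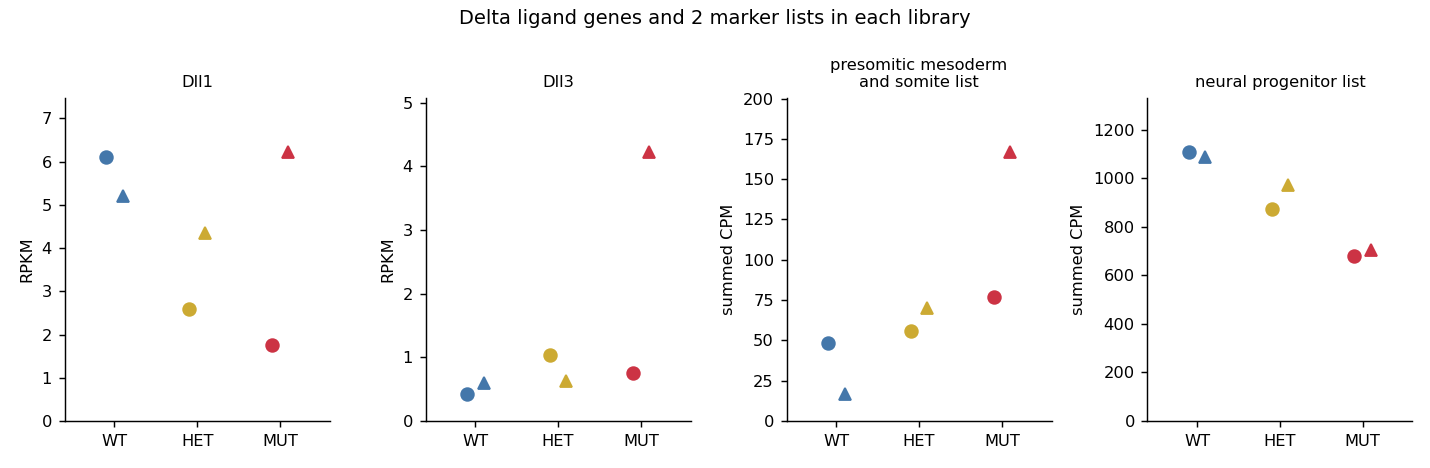
Dll1 and Dll3 in RPKM, and the summed CPM of the presomitic mesoderm and somite list and of the neural progenitor list, in each library (circles replicate 1, triangles replicate 2; axes from 0). Mutant replicate 2 stands highest for Dll1 (6.23 RPKM), Dll3 (4.23 RPKM) and the somite list (167 CPM), while the neural progenitor sums of both mutant libraries lie together at 680 and 704 CPM.

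Both fringe genes fell. Mfng, manic fringe (chromosome 15, 78755882 to 78773475, minus strand), had 4.43 and 5.14 RPKM in wild-type, 2.57 and 3.41 in heterozygous and 1.33 and 1.47 in mutant libraries. Lfng, lunatic fringe (chromosome 5, 140607320 to 140615545, plus strand), had 18.1 and 16.8, 8.41 and 14.8, and 5.09 and 6.65 RPKM. For each gene the groups followed the order wild type, heterozygous, mutant without overlap. Mfng changed by -1.77 (SE 0.21, adjusted p = 0.00371) and Lfng by -1.57 (SE 0.28, adjusted p = 0.0116) on the log2 scale in mutant against wild type. Lfng did not pass without mutant replicate 1 (-1.38, adjusted p = 0.0705, the highest of 4.56e-07 to 0.0705 over the alternatives by title). In heterozygous heads the values were -0.68 (SE 0.2, adjusted p = 0.117) for Mfng and -0.58 (SE 0.27, adjusted p = 0.262) for Lfng, and neither passed.

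Rbpj (chromosome 5, 53466152 to 53657362, plus strand), the DNA-binding partner of every cleaved Notch receptor, had 29.3 and 26.3 RPKM in wild-type, 26.1 and 27 in heterozygous and 15.4 and 16.1 in mutant libraries. Heterozygous and wild-type values overlapped, and both mutant libraries were lower than all others. Mutants were 1.76-fold lower than wild type (-0.81 in log2, SE 0.06, adjusted p = 0.00107) and 1.68-fold lower than heterozygotes (-0.75, SE 0.06, adjusted p = 0.0175). Heterozygotes stood at -0.07 against wild type (SE 0.06, adjusted p = 0.574). Its standard error, with that of Notch2, was the smallest of the 10 genes.

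The 5 calls were also computed under the other file assignments. With the 2 files as attached, 0 of the 10 genes passed (0 at an unadjusted p under 0.05), and 0 of all genes did, with 318 at an unadjusted p under 0.05. There the log2 fold changes were 0.02 for Notch3, 0.24 for Jag1, 0.2 for Mfng, 0.02 for Lfng and -0.08 for Rbpj. Leaving out both of the disputed libraries keeps wild-type replicate 1, mutant replicate 2 and the heterozygous pair, and each lone library is then assumed to vary like the heterozygous ones. In those libraries, whose files and titles match, the values were -2.1 for Notch3, -0.75 for Jag1, -1.59 for Mfng, -1.44 for Lfng and -0.86 for Rbpj. All 5 passed, with adjusted p from 0.000181 for Notch3 to 0.0491 for Lfng. Dll3 passed too (3.31, adjusted p = 0.00807) in this setting, which rests on mutant replicate 2 alone.

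The second question was whether heterozygous heads differ from wild type. Of the 10 genes 0 passed, against 6.56% of all genes tested (6.03% higher, 0.533% lower). At an unadjusted p under 0.05 stood 2 of them, Jag1 and Mfng, and 3598 of the 15187 genes tested, and DESeq2, edgeR's likelihood ratio test and limma-voom passed 0 as well. The RPKM of both groups did not overlap for 6 of the 10, 5 lower (Notch3, Jag1, Dll1, Mfng and Lfng) and 1 higher (Dll3), as for 56.3% of all genes (28.0% lower, 28.3% higher). The median log2 fold change was -0.18 over the 10 genes and -0.01 over all.

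In mutant against heterozygous heads, Notch3 and Rbpj were lower and none of the other 8 passed. This comparison shares the mutant libraries with the first, and 0.435% of all genes passed in it (0.0724% higher, 0.362% lower). Jag1 stood at -0.61 (SE 0.14, adjusted p = 0.103), Mfng at -1.09 (SE 0.21, adjusted p = 0.0868) and Lfng at -0.98 (SE 0.28, adjusted p = 0.138). Both mutant libraries had high and both heterozygous libraries low Xist, and with a term for Xist 0 of the 10 passed. Notch3 was then at -1.93 and Rbpj at -0.59. Rbpj lost its call on leaving out either mutant or either heterozygous library (-0.79 to -0.72), and Notch3 lost it without heterozygous replicate 2 (-1.76). For 6 of the 10 genes the RPKM did not overlap, all lower in mutants, as for 54.1% of all genes (27.4% lower, 26.8% higher).

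**Figure D3:**
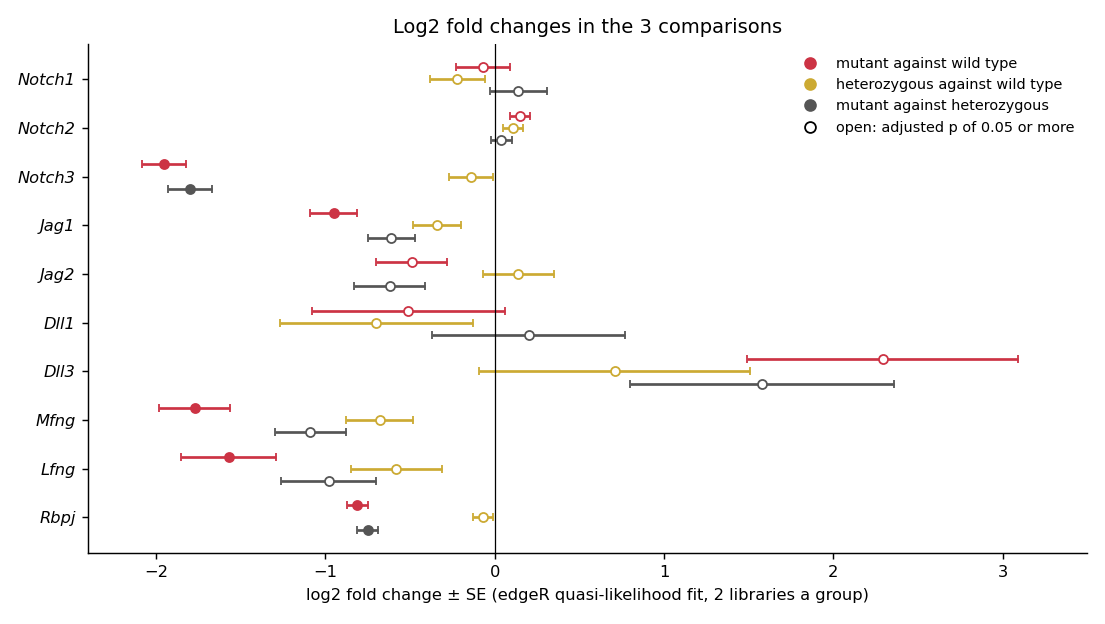
Log2 fold change (horizontal axis) with standard error for the 10 genes in the 3 comparisons; filled points passed at an adjusted p under 0.05 and open points did not. The filled points are Notch3, Jag1, Mfng, Lfng and Rbpj in mutant against wild type and Notch3 and Rbpj in mutant against heterozygous heads.

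Levels of different genes were compared in RPKM, which accounts for gene length. In wild-type heads the order was Rbpj (27.8 RPKM), Notch3 (23.3), Jag1 (22.2), Lfng (17.4), Notch2 (10.8), Notch1 (8.74), Dll1 (5.66), Mfng (4.79), Jag2 (2.41) and Dll3 (0.509). Only Notch3 and Jag1 overlapped among neighbours in that order. In heterozygous heads the order was the same, with Lfng and Notch2, Dll1 and Mfng, and Mfng and Jag2 overlapping. In mutant heads Notch2 (11.9 RPKM), Jag1 (11.4) and Notch1 (8.27) stood above Notch3 (5.99), and Notch3, Lfng, Dll1 and Dll3 each overlapped with the next in order, down to Jag2.

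The make-up of the receptor RNA shifted with Notch3. Its share of the summed RPKM of Notch1, Notch2 and Notch3 was 54.6% and 54.2% in wild-type, 51.7% and 53.2% in heterozygous and 26.5% and 19.5% in mutant libraries. Notch2 held the largest share in mutant libraries, at 46% and 44.8%. Summed receptor RPKM were 40.8 and 44.7 in wild-type, 39.4 and 40.9 in heterozygous and 25.6 and 26.7 in mutant libraries. The sum of Mfng and Lfng was lower without such a shift, from 22.5 and 21.9 RPKM in wild-type to 6.42 and 8.12 RPKM in mutant libraries, and Lfng made up 76.6% to 81.9% of it in all 6 libraries. Among Jag1, Jag2, Dll1 and Dll3, Jag1 had the largest share throughout, with 69.1% to 74.7% of their sum in 5 libraries and 48.9% in mutant replicate 2. These shares are descriptions of 2 libraries a group and were not tested.

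**Figure D4:**
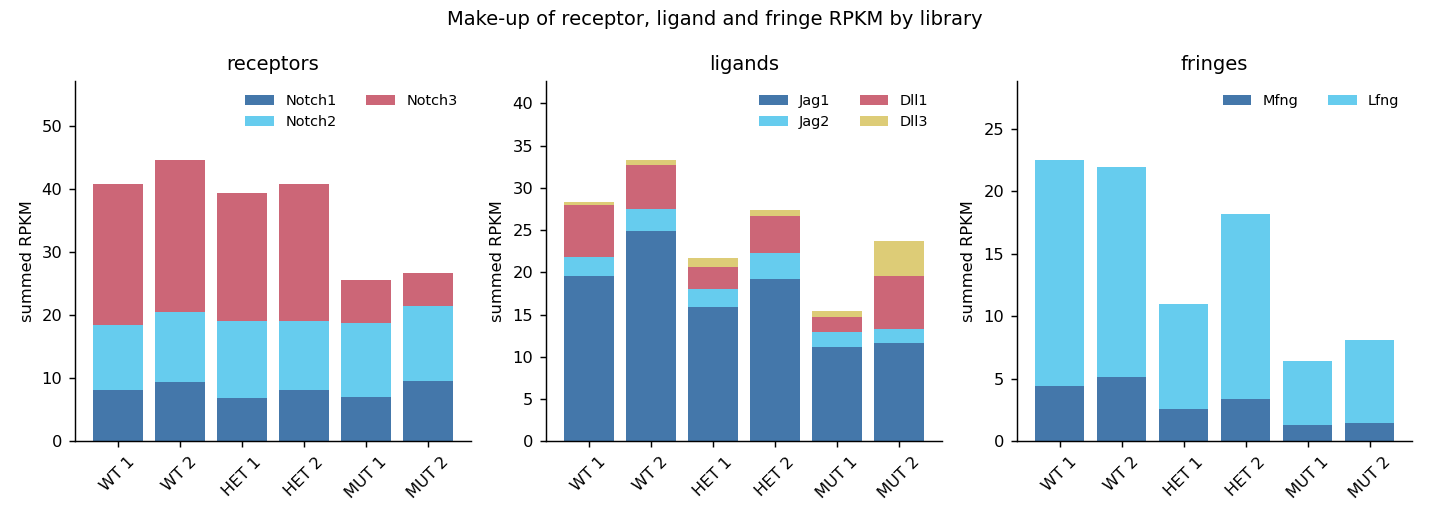
Stacked RPKM (vertical axis, from 0) of the receptor, ligand and fringe genes in each library of wild-type (WT), heterozygous (HET) and mutant (MUT) heads. The Notch3 segment shrinks in both MUT libraries to 6.79 and 5.2 RPKM, and the Dll1 and Dll3 segments are tall in MUT 2 only among the mutant libraries.

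Of the 12 neural progenitor markers, 10 fell in the same libraries, and all 12 had a median log2 change of -0.84. Scaling the libraries to the summed progenitor list, in place of the default TMM scaling, moved the median of all genes to 0.6 in mutant against wild type. On that scale Notch3 (-1.33), Mfng (-1.16), Lfng (-0.95) and Jag1 (-0.34) still passed as lower, while Rbpj was at -0.2 and did not pass (adjusted p = 0.0579, of 5.94e-21 to 0.0579 over the alternatives by title). Notch1 (0.54), Notch2 (0.76) and Dll3 (2.9) passed as higher, and Jag2 and Dll1 turned to 0.13 and 0.11. Of the 15187 genes tested, 10862 passed on the same scale, 10380 higher and 482 lower. Relative to the moved median of all genes, Notch3 was at -1.93, Mfng at -1.75, Lfng at -1.55, Jag1 at -0.94, Rbpj at -0.8, Notch1 at -0.06, Notch2 at 0.17, Jag2 at -0.47, Dll1 at -0.49 and Dll3 at 2.3. Taking off the moved median undoes the rescaling, so these values repeat those under TMM scaling and are no second test. Scaling to the summed list and TMM scaling gave Rbpj, Notch1, Notch2 and Dll3 different calls, and Notch3, Jag1, Mfng and Lfng the same one. Genes with many reads weigh most in that sum, such as Cdh2 (10838 reads in wild-type replicate 1). Crb2 in it was higher in mutants (0.63).

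The rest of the pathway was read from a list of 46 further genes, of which 44 were tested and Dlk2 and Hes7 had too few reads. In mutant against wild-type heads 8 were higher and 9 lower, their median was 0 on the log2 scale, and 30.6% of all genes differed. In heterozygous against wild-type heads 3 were higher and 1 lower, where 6.56% of all genes differed (6.03% higher, 0.533% lower). In mutant against heterozygous heads 0 passed, where 0.435% of all genes did. The list was written with earlier results of these data known.

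Among other receptors, ligands and fringes, the vessel ligand gene Dll4 rose (0.99, SE 0.15, adjusted p = 0.00745), Rfng, radical fringe, fell slightly (-0.29, adjusted p = 0.0485) and Notch4, a vessel receptor gene, did not pass. Of 12 endothelial markers 1 was higher in the same comparison. All 3 vertebrate fringe genes were thus lower in mutant heads, Rfng by far less than Mfng and Lfng. Dlk1, a non-canonical ligand gene, rose from 12.4 and 7.99 RPKM to 65.1 and 40.3 RPKM (2.38, SE 0.29). In the 2 heterozygous libraries Dlk1 was at 30.5 and 29.5 RPKM and passed as well (1.56, adjusted p = 0.0347). Of the enzymes that glycosylate the receptor first, Pofut1 and Poglut1 did not pass.

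Among ubiquitin ligases that drive ligand endocytosis, Mib1 (-0.49, adjusted p = 0.0492) and Mib2 (-0.6, adjusted p = 0.0463) were lower. Neurl1b was higher (2.12, SE 0.22) at 0.756 and 0.682 RPKM against 0.157 and 0.175. Of 9 receptor protease genes 3 rose. Furin, which cuts the receptor precursor and many other proproteins, went from 9.81 and 10 to 35.6 and 29.5 RPKM (1.73, SE 0.11), and the gamma-secretase subunit genes Aph1a (0.33) and Ncstn (0.18) changed little. The yolk sac sums of the same mutant libraries were 4980 and 4200 CPM against 8.31 and 16, and Furin, Neurl1b and Dlk1 also passed as higher in heterozygous heads, whose sums were 2670 and 1930 CPM. In heterozygous libraries Neurl1b (0.887 and 1.12 RPKM) stood above both mutant values, while Furin (24.3 and 21.2 RPKM) and Dlk1 stood between wild type and mutant. Heart sums were 247 and 74.8 CPM in wild-type, 1830 and 2880 in heterozygous and 2160 and 1230 in mutant libraries. The part of these tissues was not tested.

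Of 8 nuclear cofactor genes, the Mastermind genes Maml3 (-0.75, SE 0.07) and Maml2 (-0.39, SE 0.1) fell. Maml3 was at 7.74 and 7.69 RPKM in wild-type and 4.42 and 4.69 in mutant libraries. Among 9 genes of receptor turnover and inhibition, Dtx4, a Deltex ubiquitin ligase gene, fell from 18.4 and 16.5 to 6.87 and 7.54 RPKM (-1.27, SE 0.09, adjusted p = 0.000891) and was lower in heterozygous heads as well (-0.55, adjusted p = 0.026). Nedd4 (-0.25) was lower too, as was Fbxw7 (-0.3), named after its value was seen. Numb, an endocytic Notch inhibitor, rose (0.53, SE 0.09).

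Of 8 target genes 7 were tested and 1 passed. Hes5, a target in neural progenitors, fell from 5.21 and 5.46 RPKM to 1.04 and 1.15 RPKM (-2.28, SE 0.56, adjusted p = 0.0292). Its heterozygous values of 1.22 and 4.15 RPKM lay far apart, between the mutant and the wild-type ones. Hes1, a target in many tissues, had 38.8 and 36.1 RPKM in wild-type, 34.3 and 33.6 in heterozygous and 37.1 and 37.3 in mutant libraries, and Nrarp, a target that feeds back on the pathway, 6.52 and 8.96, 3.92 and 5.58, and 6.94 and 9.03 RPKM. Hes1 and Nrarp were named after their values were seen. Neither passed in any comparison.

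**Figure D5:**
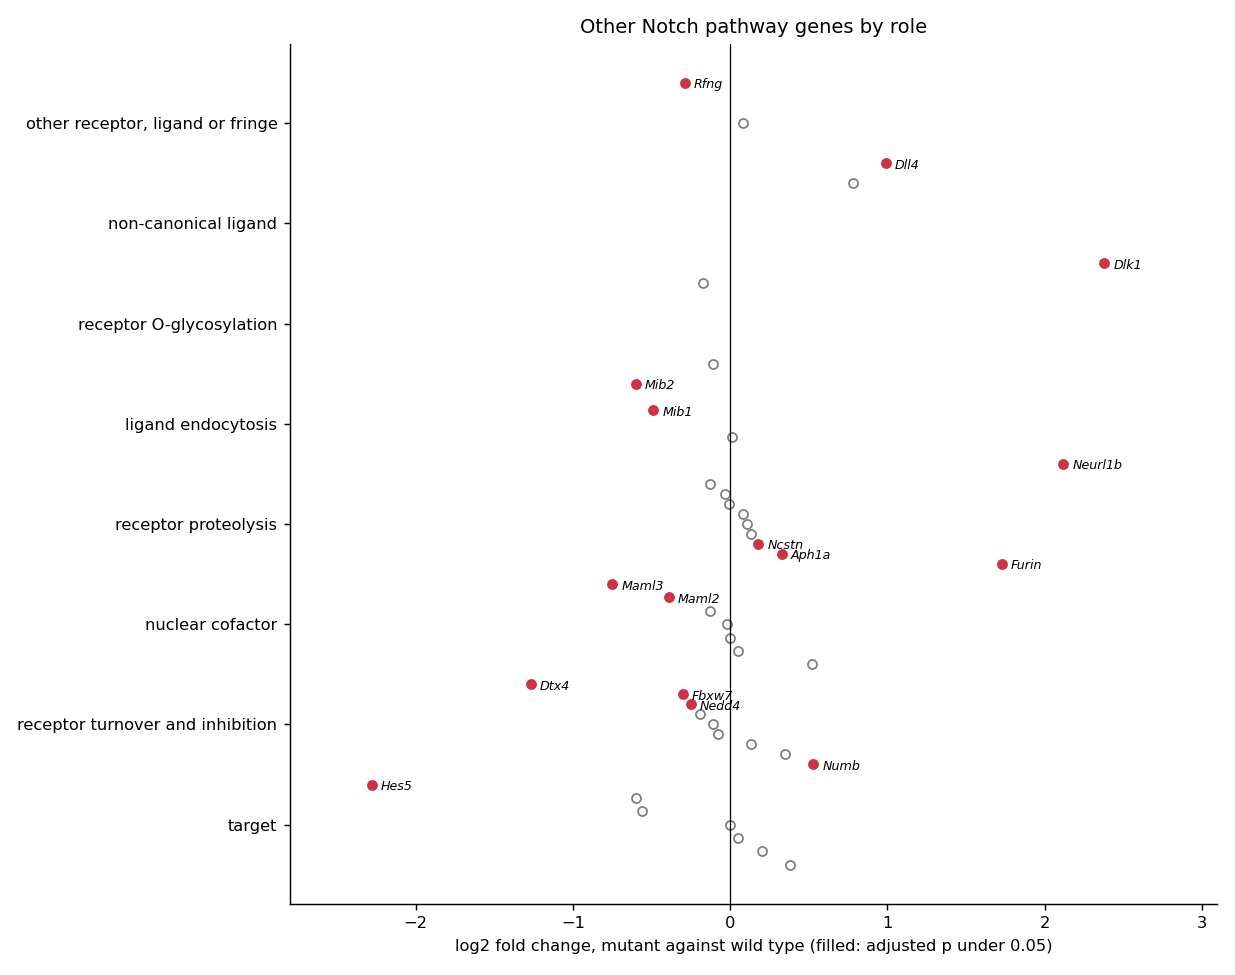
Log2 fold change in mutant against wild-type heads (horizontal axis) for tested pathway genes outside the core set, in rows by role, leaving out a gene not reported here; filled, named points passed at an adjusted p under 0.05. Filled points lie on both sides of 0, from Hes5 at -2.28 to Dlk1 at 2.38.

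Promoter sequences are shown for the lower genes that have a window in RefSeq's table (GRCm38.p6), to let a reader see the start regions of genes that fell together. A window runs from 250 bases before to 50 bases after the start, 5′ to 3′ on the gene's strand. Capitals mark TGGGAA, the core of the site that Rbpj binds, or TTCCCA, the same site on the opposite strand. The windows of Rbpj and Dll1 come in pairs, and the first of the Rbpj pair is printed.
Notch3 (chr17:32166841-32167140, minus strand): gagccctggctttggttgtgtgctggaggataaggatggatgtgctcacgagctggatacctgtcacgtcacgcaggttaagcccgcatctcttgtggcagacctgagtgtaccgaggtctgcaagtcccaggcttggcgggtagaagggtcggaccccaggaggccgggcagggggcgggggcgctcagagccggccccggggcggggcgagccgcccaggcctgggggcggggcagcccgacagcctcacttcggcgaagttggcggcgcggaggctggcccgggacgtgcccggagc
Jag1 (chr2:137116471-137116770, minus strand): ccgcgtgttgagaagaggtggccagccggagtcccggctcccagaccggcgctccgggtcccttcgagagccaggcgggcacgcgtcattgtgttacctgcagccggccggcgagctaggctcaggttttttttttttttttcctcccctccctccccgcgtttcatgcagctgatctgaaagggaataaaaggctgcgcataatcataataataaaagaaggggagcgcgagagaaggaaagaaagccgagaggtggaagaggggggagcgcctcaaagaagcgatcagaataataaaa
Lfng (chr5:140607091-140607390, plus strand): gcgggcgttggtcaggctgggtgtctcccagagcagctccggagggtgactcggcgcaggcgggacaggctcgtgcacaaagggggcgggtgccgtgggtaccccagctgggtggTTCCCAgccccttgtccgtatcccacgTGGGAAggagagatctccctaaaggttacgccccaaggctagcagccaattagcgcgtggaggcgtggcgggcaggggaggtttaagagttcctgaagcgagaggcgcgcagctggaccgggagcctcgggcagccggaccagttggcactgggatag
Rbpj (chr5:53590096-53590395, plus strand): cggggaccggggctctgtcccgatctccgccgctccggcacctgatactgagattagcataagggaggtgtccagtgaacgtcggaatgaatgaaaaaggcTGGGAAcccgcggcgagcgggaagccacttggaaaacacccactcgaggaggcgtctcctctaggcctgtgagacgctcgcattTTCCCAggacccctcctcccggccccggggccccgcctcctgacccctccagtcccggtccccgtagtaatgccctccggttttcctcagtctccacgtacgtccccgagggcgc

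In the Lfng window the matches begin 135 bases before the start on the opposite strand and 108 bases before it on the gene's strand, and the latter is part of the longer form GTGGGAA. In the Rbpj window they begin 149 bases before the start on the gene's strand and 65 bases before it on the opposite strand. That window lies inside the gene's span of 53466152 to 53657362 and not at its 5′ end. The Notch3 and Jag1 windows hold no match, nor do those of Notch1, Notch2, Jag2, Dll1 and Dll3. Of all 32851 mouse windows of this length 25.6% hold TGGGAA on either strand and 6.38% hold GTGGGAA. Of the 11 windows of the 9 genes, 3 hold TGGGAA, those of Lfng and Rbpj, and GTGGGAA occurs in the Lfng window alone. The overlapping second Rbpj window holds the same opposite-strand match again. A match describes letters only. The GC content of all 11 windows of the 9 genes was 52% to 86%, against a median of 52.7% over all windows, and they held 11 to 63 CpG dinucleotides against a median of 7.

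The genes whose pattern over the 6 libraries was most like that of a member were found by the root mean square difference of log2 CPM, each gene centred on its own mean, among 10547 genes. For Notch3 these were Zfp704 (0.08), Tet1 (0.09), an enzyme gene of DNA demethylation, and Kif1a (0.15), a neuronal motor gene, where the median gene differed by 0.91. Zfp704 had 5.4 and 5.94 RPKM in wild-type, 5.14 and 5.23 in heterozygous and 1.72 and 1.47 in mutant libraries, the same step between heterozygous and mutant heads as in Notch3. For Rbpj they were Acadsb (0.05), Cnih2 (0.06) and Lpl (0.06), against a median of 0.39. For Mfng they were Srgap3 (0.07), S1pr3 (0.09) and Foxl2os (0.09), against 0.74. For Dll1 the nearest genes were farther off, at 0.27 for Wnt5b and 0.29 for Acsl6 and Ltbp3, against 0.68. The nearest to Notch1 were Lmo2 (0.04), a gene of blood and vessel precursors, Tnfrsf21 (0.07) and Fam118a (0.08), against 0.23.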

How the data were processed

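PolyA-selected RNA from embryo heads was made into 6 stranded paired-end libraries, per the labels' protocols. Per the submitters' processing notes, the tools were edgeR 3.8.6, HTSeq 0.6.1p2, TopHat2 2.0.11, cutadapt 1.8 and Trim Galore 0.4.0, and the build was mm10. How the counter treated strand is not given in the sources used here. Reads of overlapping genes cannot be told apart. These are Mir6996 in Notch1, Mir6941 in Jag2, and genes on the same or the opposite strand, not counted separately, at Notch2, Notch3, Dll1 and Rbpj. The authors deposited 1 file of raw counts for every library and a table with RPKM, log2 fold changes, likelihood ratio scores and p-values with false discovery rates. The deposited RPKM imply library sizes within 0.746% of the TMM-scaled ones. The table's comparison over all genotypes was not used here.

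Counts, assigned by the title in the file name, went into edgeR 4.0.16 (R 4.3.3, glmQLFit, glmQLFTest, TMM scaling, filterByExpr, 3 residual degrees of freedom over 6 libraries fitted together), adjusted by Benjamini-Hochberg over 15187 genes at 0.05. The 5 summary lines of each file were left out; 8.93% to 10.5% of read pairs lay in no feature and 12.7% to 14.5% were not unique. A standard error is |log2 fold change| over the root of its F statistic. Alternatives were other assignments, scalings, filters, DESeq2 1.42.0, limma 3.58.1 (voom, and log2 of RPKM plus 0.1 or 1) and single libraries left out. Members and gene lists were chosen with earlier results of these data known. All members are named, with up to 3 genes per pathway role by smallest p, or the 2 highest where none passed, and the 3 nearest by pattern with a mean of at least 5 CPM. Summed lists use library totals. Some listed genes enter the counts but are not reported here by name. GENCODE M21 gave gene positions (GRCm38, the same assembly as mm10).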

Additional observations from a re-analysis of the deposited data

How the results depend on the processing

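The calls in mutant against wild type were lost with the 2 count files as attached and held for most members under the other settings. With both libraries of those files left out, Notch3 was at -2.1, Jag1 -0.75, Mfng -1.59, Lfng -1.44 and Rbpj -0.86 (log2). In mutant against wild type, Notch3, Jag1 and Mfng passed as lower in 20 of 20 settings by title, and Lfng and Rbpj in 19. Notch3 ranged from -2.15 to -1.33, Jag1 from -1.12 to -0.34, Mfng from -1.87 to -1.16, Lfng from -1.77 to -0.95 and Rbpj from -0.9 to -0.2 (log2).

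With the files as attached, 0 members and 0 genes passed in any comparison, and 318, 48 and 422 genes had an unadjusted p below 0.05. In mutant against wild type Notch1 was at 0.32, Notch3 0.02, Jag1 0.24, Jag2 0.14, Dll1 0.54, Mfng 0.2 and Lfng 0.02. In heterozygous against wild type Notch3 was at 0.53, Jag1 0.19, Mfng 0.05, Lfng 0.01 and Rbpj 0.25, and in mutant against heterozygous Notch2 was at -0.01, Jag1 0.06, Mfng 0.14 and Lfng 0.01.

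Scaled to the progenitor list, 10862, 2520 and 7342 genes passed in mutant against wild type, heterozygous against wild type and mutant against heterozygous (10380, 2478 and 7114 higher), and 5 members in the last. Notch1, Jag2 and Dll1 turned to 0.54, 0.13 and 0.11 in the first and Notch1, Notch3 and Rbpj to 0.01, 0.09 and 0.17 in the second comparison. A term for Xist gave 2500, 516 and 4 genes and 0 members in the last, with Notch1 and Notch2 at -0.06 there. DESeq2 passed 1890 and 1313 genes and the likelihood ratio test 1579 and 801 in the other two comparisons, each with 5 members in the last. In mutant against heterozygous, no filter gave 182 genes, fitting 2 groups alone 106, and unfiltered RPKM 43. Without both libraries of the exchanged files, chosen after seeing the data, 2046 genes passed in the first and 180 in the last, and Notch1 and Dll1 were at 0.23 and 0.03.

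Leaving out single libraries gave 1997 to 4265 genes in the first, 313 to 748 in the second and 11 to 81 in the last comparison, and 5 to 6, 0 to 0 and 0 to 2 members. Without single libraries some values turned sign: Notch1 spanned -0.31 to 0.14 (0.02 without wild-type replicate 2) and Dll1 -1.68 to 0.15 in the first, Jag2 -0.15 to 0.39 and Rbpj -0.14 to 0.02 in the second, and Notch1 -0.1 to 0.35, Notch2 -0.04 to 0.1, Dll1 -0.98 to 0.84 (-0.13 without heterozygous replicate 1) and Dll3 -0.16 to 2.35 in the last. Dll1 in the last was at -0.11 by limma-voom and -0.02 on RPKM with and without a filter. The cause was not tested. No paired analysis was possible because the labels give no shared replicate numbers. Mfng, Dll3 and Jag2 had the fewest reads, 38 to 379 a library.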
